A study of Rattus norvegicus with 16 samples.

Results

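Fatty acid and triglyceride synthesis was followed here through 10 genes, read by 12 of the 30367 probes of the array and chosen by name as lipogenic enzymes and their regulator: *Srebf1*, *Acly*, *Acaca*, *Me1*, *Fasn*, *Elovl6*, *Scd1*, *Gpam*, *Dgat1* and *Dgat2*. The array holds 26269 gene names in all, and *Me1* and *Elovl6* had 2 probes each. The study lowered *Pdrg1*, a small prefoldin-like protein gene, by RNA interference in rat hepatoma H35 cells, a liver tumour line, and asked how the steady-state transcriptome responded. RNA from 4 biological replicates of each of 4 groups was hybridized to 16 one-color arrays, on which the Cy3 signal of a single sample is read.

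All groups were H35 cells in DMEM with 10% fetal bovine serum and 2 mM glutamine, and all carried an shRNA plasmid and had been under G418. CN-10 is a stable clone with the negative control sequence, 4-18 a stable clone with the shRNA4 sequence and 3-44 a stable clone with the shRNA3 sequence, each selected first at 1.8 and then at 4 mg/ml G418. The shRNA3T pool was transfected with the shRNA3 plasmid and enriched at 1.8 mg/ml G418 only. Each of the stable groups is therefore 1 clone out of many, and the pool was compared with a stable clone and not with a pool of control cells. An array reads the RNA of a whole culture, so a higher level per cell and a larger share of cells with that level cannot be told apart.

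*Pdrg1* itself was lower than in CN-10 by 0.77 to 0.99 on the log2 scale in the silenced groups, all 12 silenced arrays lay below the 4 control arrays, and the adjusted p by limma was 0.105 to 0.143. With replicate 1 of every group left out, *Pdrg1* passed against CN-10 in each of them, at -0.41 for 4-18, -0.82 for 3-44 and -0.79 for shRNA3T (adjusted p = 0.00647, 0.000306 and 0.000212). Slide and group cannot be told apart, because the 4 arrays of a group shared a slide that held no other group, and the scan day of 4-18 differed from that of the rest. The arrays of 4-18 were the dimmest, with a 75th percentile of spot intensity of 1614 to 1946 against 2328 to 3692 on the other arrays. Replicate 1 of a group stood apart for several genes, *Pdrg1* included, and for *Pdrg1*, *Fasn*, *Acaca*, *Elovl6*, *Scd1*, *Dgat1* and *Srebf1* values without it are given as well. Of 10 hepatocyte markers all 10 were well above background on every array of CN-10, 3-44 and shRNA3T and 7 of 10 on every array of 4-18. Of 9 markers of other cell types, *Cdh5* (endothelial) and *Col1a1* (fibroblast) were so on all 16 arrays, *Col1a2* (fibroblast), *Cd68* and *Csf1r* (leukocyte) on 15, *Col3a1* (fibroblast) on 7, *Kdr* (endothelial) on 6, and the defining genes *Ptprc* (leukocyte) and *Pecam1* (endothelial) on none. Of the hepatocyte markers 2 rose (*Ttr*, by 2.93, and *Apoa2*) and 4 fell (*Apoa1*, by 2.12, *Fgb*, *Tat* and *Tf*) in 4-18, 3 rose in 3-44 (*Ttr*, by 2.84, *Apoa1*, by 2.18, and *Fgb*), and 4 rose (*Ttr*, by 2.39, *Apoa2*, *Fgb* and *Serpina1*) and 1 fell (*Afp*) in shRNA3T. Of the 9 others, *Cd68* fell by 0.43 in 4-18 (adjusted p = 0.0142) and *Col1a1* rose by 0.52 in shRNA3T (adjusted p = 0.0338). The part of these shifts in the results was not tested. All 12 lipogenic probes were well above background on all 16 arrays.

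Hepatocytes make fatty acids from citrate that leaves the mitochondrion. ATP citrate lyase (*Acly*) splits it to acetyl-CoA, acetyl-CoA carboxylase (*Acaca*) makes malonyl-CoA, and fatty acid synthase (*Fasn*) builds palmitate from both, with reducing power in part from malic enzyme (*Me1*). Palmitate is lengthened by *Elovl6*, desaturated by *Scd1*, joined to glycerol phosphate by *Gpam* and completed to triglyceride by *Dgat1* or *Dgat2*, and SREBP-1, the product of *Srebf1*, drives the transcription of most of these genes in liver.

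The probes are DNA oligos of 60 bases, each written 5′ to 3′ in the sense of its transcript. The array files place them on the rn4 build, in which exons were not annotated here. The *Fasn* probe, on which most of what follows turns, has no position in the files, and its first 30 bases are shown. The *Acaca* and *Dgat1* probes are shown since these genes passed the test in opposite directions, and the *Gpam* probe since its 60 bases are spread over 5384 bases of the genome, so that it crosses an intron. The second probes of *Me1* and *Elovl6* are shown because they did not follow the first ones.
*Fasn* (A_44_P235978, bases 1 to 30): gaaggacctaccctgtctcaataatgtctc
*Acaca* (A_64_P231828, chr10:72499952-72500011, plus strand): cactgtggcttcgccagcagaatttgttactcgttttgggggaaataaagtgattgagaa
*Dgat1* (A_44_P515326, chr7:114552281-114552340, minus strand): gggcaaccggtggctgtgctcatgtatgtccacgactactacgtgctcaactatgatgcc
*Gpam* (A_44_P242969, chr1:261370372-261375755, minus strand): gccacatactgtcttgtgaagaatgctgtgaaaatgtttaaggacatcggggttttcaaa
*Me1* second probe (A_64_P136153, chr8:91841235-91841294, minus strand): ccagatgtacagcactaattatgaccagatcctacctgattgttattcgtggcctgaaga
*Elovl6* second probe (A_44_P428691, chr2:227047594-227052367, plus strand): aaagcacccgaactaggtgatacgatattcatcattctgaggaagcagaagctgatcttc

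*Fasn*, the enzyme that assembles palmitate, rose in 4-18 and in shRNA3T and differed between every pair of silenced groups. The normalized log2 intensity on the 4 arrays was 14.71, 14.58, 14.74 and 14.51 in CN-10. It was 16.38, 15.78, 16.02 and 15.71 in 4-18. In 3-44 the values were 14.37, 14.53, 14.47 and 14.07, and in shRNA3T they were 15.27 and 15.18 on replicates 1 and 3 and rounded to 15 on replicates 2 and 4. The arrays of 4-18 thus lay above all others, those of shRNA3T lay above CN-10 and 3-44, and only CN-10 and 3-44 overlapped. The change from CN-10 was 1.34 on the log2 scale in 4-18 (2.52-fold, standard error 0.14, adjusted p = 4.53e-06 by limma) and 0.47 in shRNA3T (1.39-fold, adjusted p = 0.035). In 3-44 it was -0.28 (adjusted p = 0.291). The silenced groups differed by 1.61 for 4-18 against 3-44 (3.06-fold, adjusted p = 8.14e-07), by 0.86 for 4-18 against shRNA3T (adjusted p = 0.000333) and by -0.75 for 3-44 against shRNA3T (adjusted p = 0.00229). The groups that share the shRNA3 sequence therefore did not share a level of *Fasn*.

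The rise in 4-18 kept an adjusted p under 0.05 in 26 of 27 alternatives, and lost it with the authors' values, which are not scaled between arrays (0.67, adjusted p = 0.0899). On that scale the 250 probes next above and the 250 next below *Fasn* in level had a median difference of -0.63 between 4-18 and CN-10, and relative to them *Fasn* was higher by 1.30. The differences of 4-18 and of 3-44 from shRNA3T were not past the test with equal medians (0.40 and -0.71, adjusted p = 0.27 and 0.34) or with the authors' values (0.22 and -0.82, adjusted p = 0.485 and 0.158), and that between 4-18 and 3-44 held in all 27 alternatives. The smaller rise in shRNA3T was lost in 9 of 27 alternatives, among them the removal of any 1 array of CN-10 or of replicate 1, 3 or 4 of shRNA3T (adjusted p = 0.0509 to 0.0949).

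**Figure D1:**
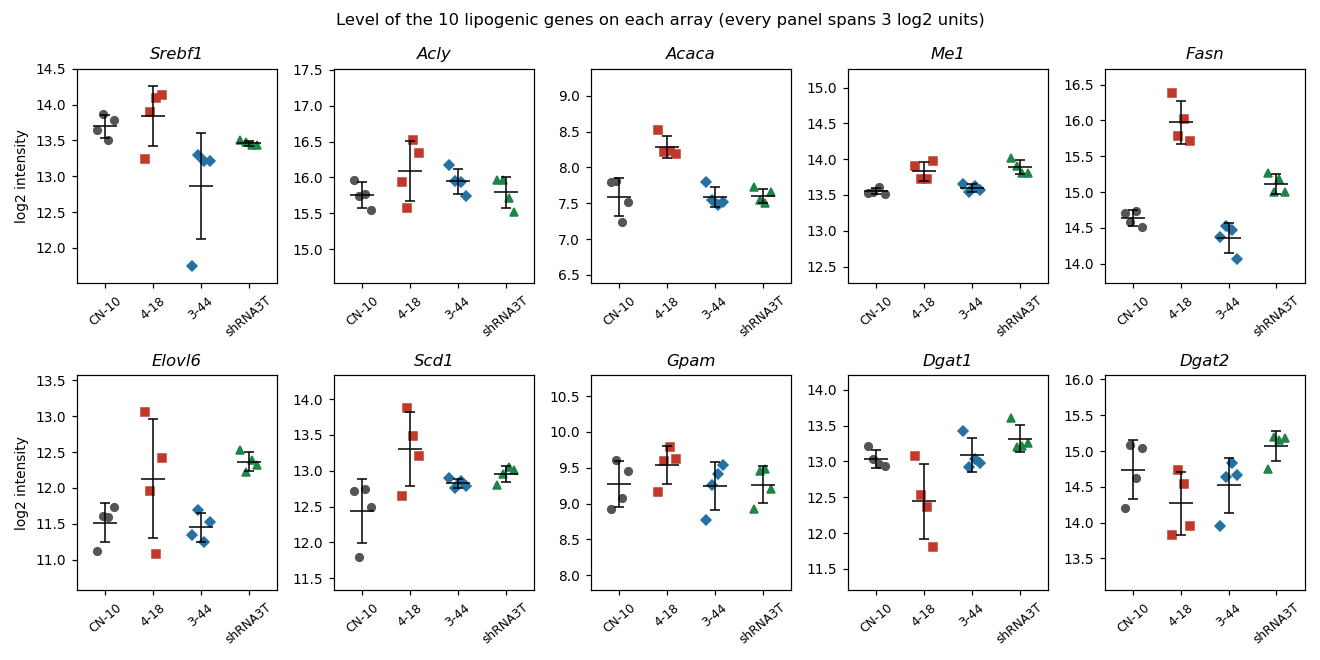
Normalized log2 intensity of the 10 lipogenic genes on each of the 16 arrays, with the mean and SD of each group of 4 as a bar and replicates 1 to 4 drawn from left to right. Every panel spans 3 log2 units, and *Fasn* in 4-18 (15.71 to 16.38) lies above every other array of its panel, while *Srebf1* has 1 array of 3-44 at 11.75.

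Of the 10 genes, 4 rose (*Fasn*, *Acaca*, *Me1* and *Scd1*) and 1 fell (*Dgat1*) in 4-18 at an adjusted p under 0.05. In that comparison 24.1% of all gene names passed, and 36.2% of those that were, as these 10 are, well above background on every array of a group. The split of 4 and 1 was 4 higher and 0 lower with the processed signal, 2 and 2 with equal medians and 0 and 2 with the authors' values. None of the 10 passed in 3-44 by limma, against 8.14% of all gene names and 12.8% of the detected ones, and 1 of them, *Srebf1*, was under 0.05 before adjustment. In shRNA3T 2 rose (*Fasn* and *Me1*), against 12.2% and 19.1%. The 2 of 10 in shRNA3T are close to the share of detected genes at large, and nothing particular to the 10 genes is read from the 5 of 10 in 4-18. The median log2 change of the 10 genes was 0.31 for 4-18, -0.01 for 3-44 and 0.31 for shRNA3T, while that of all gene names was 0.00, -0.01 and -0.01. Quantile normalization makes the arrays alike in their medians, so the values for all gene names are not a result. The 0.31 for 4-18 rests on that scaling. With equal medians and with the authors' values most of the 10 genes were lower in 4-18, as were bright probes at large.

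Between the silenced groups 4 genes were higher (*Fasn*, *Acaca*, *Me1* and *Srebf1*) and 1 lower (*Dgat1*) in 4-18 than in 3-44, with a background of 22.5% of all and 33.3% of detected gene names. Against shRNA3T 2 were higher (*Fasn* and *Acaca*) and 2 lower (*Dgat1* and *Dgat2*) in 4-18, with 20.5% and 31.1%, and this split was 4 and 0 or 3 and 0 with the processed signal, 1 and 3 with equal medians and 0 and 3 with the authors' values. In 3-44 against shRNA3T 2 were lower (*Fasn* and *Me1*), with 10.9% and 16.8%. *Fasn* was the one gene past 2-fold, in 4-18 against CN-10 (background 6.15%) and against 3-44 (4.98%), and no gene was so in the other comparisons (1.47% in 3-44 and 2.39% in shRNA3T against CN-10, 4.56% in 4-18 and 2.12% in 3-44 against shRNA3T). With equal medians the one gene past 2-fold in 4-18 against CN-10 was *Dgat1*, which was lower (-1.08, against 0.89 for *Fasn*). The groups did not overlap for 3, 2 and 5 of the 10 genes in 4-18, 3-44 and shRNA3T against CN-10, where 23.5%, 16.3% and 22.2% of all gene names did not. For 4-18 against 3-44, 4-18 against shRNA3T and 3-44 against shRNA3T it was 3, 4 and 4 genes, with 21.8%, 22.6% and 22.1%. All comparisons with CN-10 share its 4 arrays.

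**Figure D2:**
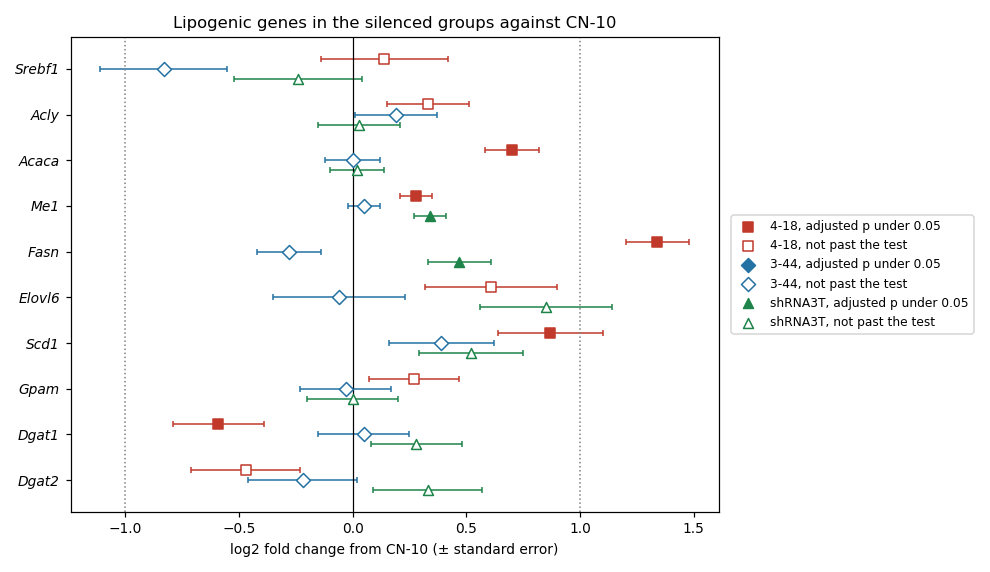
Log2 fold change from CN-10, with its standard error, of the 10 lipogenic genes in 4-18, 3-44 and shRNA3T; filled symbols have an adjusted p under 0.05 and dotted lines mark 2-fold. *Fasn* in 4-18 (1.34) is the only filled symbol beyond 2-fold, and no symbol of 3-44 is filled.

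Among the enzymes that supply *Fasn*, *Acaca*, whose carboxylase makes malonyl-CoA and sets the pace of the pathway, rose in 4-18 alone among the comparisons with CN-10. Its log2 intensity was 7.79, 7.81, 7.24 and 7.51 in CN-10 and 8.52, 8.22, 8.23 and 8.19 in 4-18. In 3-44 it was 7.79, 7.54, 7.48 and 7.52, and in shRNA3T 7.72, 7.54, 7.50 and 7.65. All arrays of 4-18 lay above all 12 others, and the other groups overlapped. The change in 4-18 was 0.70 (1.63-fold, standard error 0.12, adjusted p = 0.000636 by limma), against 0.00 in 3-44 and 0.02 in shRNA3T. *Acaca* was also higher in 4-18 than in 3-44 by 0.71 (adjusted p = 0.000668) and than in shRNA3T by 0.68 (adjusted p = 0.000926). The call against CN-10 held in 26 of 27 alternatives and was lost with the authors' unscaled values (0.43, adjusted p = 0.331). With those values the calls against 3-44 and shRNA3T were lost as well (0.57 and 0.52, adjusted p = 0.229 and 0.236).

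*Acly*, which cuts citrate to acetyl-CoA, passed the test in no comparison. It read 15.54 to 15.97 in CN-10, 15.57 to 16.52 in 4-18, 15.74 to 16.17 in 3-44 and 15.52 to 15.97 in shRNA3T, and all groups overlapped. Its change in 4-18 was 0.33 (standard error 0.18, adjusted p = 0.208). It passed in 4 of 27 alternatives, among them those that start from the software's processed signal (0.59, adjusted p = 0.00473, with quantile normalization) and the removal of replicate 2 of 4-18 (0.51, adjusted p = 0.0293), and its sign turned with equal medians (-0.06) and with the authors' values (-0.31).

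*Me1*, the malic enzyme that yields NADPH in the cytosol, rose slightly on its brighter probe, which has 10 spots on each array. That probe read 13.52 to 13.61 in CN-10, 13.72 to 13.98 in 4-18, 13.54 to 13.65 in 3-44 and 13.81 to 14.02 in shRNA3T. The arrays of 4-18 and shRNA3T lay above those of CN-10 and 3-44 and overlapped each other. The change from CN-10 was 0.28 in 4-18 (1.22-fold, standard error 0.07, adjusted p = 0.0114) and 0.34 in shRNA3T (1.26-fold, adjusted p = 0.0071). It was 0.05 in 3-44 (adjusted p = 0.806). The call in shRNA3T was lost with equal medians (0.33, adjusted p = 0.736) and with the authors' values (0.31, adjusted p = 0.953). The second probe, 1253 bases upstream on the genome, gave -0.29, 0.29 and 0.16 (standard error 0.27) and passed nowhere, so the probes of *Me1* differ in sign in 4-18. The sign of the first probe in 4-18 also turned with the arrays at equal medians (-0.22) and with the authors' values (-0.46), both without a call, and the call was also lost with the processed signal (0.26 and 0.24, adjusted p = 0.0894 and 0.0896). The differences of *Me1* between 4-18 and 3-44 (0.24, adjusted p = 0.0333) and between 3-44 and shRNA3T (-0.29, adjusted p = 0.0209) were lost in 12 and 9 of 27 alternatives. For 4-18 against CN-10 on the authors' scale, the 250 probes on either side in level had a median difference of -0.75, and *Me1* was higher than these by 0.29.

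Of the enzymes that modify palmitate, *Scd1*, the stearoyl-CoA desaturase that puts the double bond into oleate, rose in 4-18. Its log2 intensity was 12.71, 11.79, 12.75 and 12.49 in CN-10, and 12.65, 13.87, 13.48 and 13.20 in 4-18. It was 12.76 to 12.90 in 3-44 and 12.80 to 13.05 in shRNA3T. Replicate 1 of 4-18 fell among the arrays of CN-10, while 3-44 and shRNA3T lay just above all of CN-10. The change was 0.87 in 4-18 (1.82-fold, standard error 0.23, adjusted p = 0.0107 by limma). It was 0.52 for shRNA3T (adjusted p = 0.18) and 0.39 for 3-44 (adjusted p = 0.383). Without replicate 1 of every group the change in 4-18 was 1.18 (adjusted p = 0.00258). It was not past the test with equal medians (0.38, adjusted p = 0.323), with the authors' values (0.16, adjusted p = 0.713) or in a fit of the 8 arrays alone (0.87, adjusted p = 0.079). The silenced groups did not differ in *Scd1* at an adjusted p under 0.05, although 4-18 exceeded 3-44 by 0.69 (adjusted p = 0.0247) with replicate 1 of 4-18 left out.

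*Elovl6*, the elongase that takes palmitate to stearate, passed in no comparison. Its brighter probe read 11.12, 11.61, 11.59 and 11.74 in CN-10 and 12.53, 12.22, 12.39 and 12.32 in shRNA3T, with no overlap. In 4-18 it read 13.06, 11.95, 11.08 and 12.42, so that these arrays held both the highest and the lowest value of the probe. In 3-44 it read 11.24 to 11.69, within the range of CN-10. The change was 0.85 in shRNA3T (1.8-fold, standard error 0.29, adjusted p = 0.0805), 0.61 in 4-18 (adjusted p = 0.159) and -0.06 in 3-44. Leaving out replicate 3 of 4-18 brought both rises past the test, at 0.96 for 4-18 (adjusted p = 0.005) and 0.85 for shRNA3T (adjusted p = 0.0112), as did leaving out replicate 1 of 4-18 for shRNA3T (adjusted p = 0.0215). In the other direction, the rise in 4-18 was 0.17 (adjusted p = 0.711) without replicate 1 of every group, 0.12 with equal medians and -0.09 with the authors' values, and that in shRNA3T was 0.24 and 0.25 with the processed signal. The second probe, 1678 bases upstream on the genome and across an intron, gave -0.23 in 4-18, 0.31 in 3-44 and 0.26 in shRNA3T and passed nowhere.

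Of the acyltransferases among the 10 genes none rose against CN-10. *Gpam*, the mitochondrial enzyme that adds the first fatty acid to glycerol phosphate, read 8.77 to 9.79 over all 16 arrays, all groups overlapped, and its changes were 0.27, -0.03 and 0.00 (standard error 0.20, lowest adjusted p = 0.374).

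*Dgat1*, one of the unrelated enzymes that add the last fatty acid, was lowest in 4-18. It read 13.21, 13.03, 12.97 and 12.93 in CN-10, 13.08, 12.53, 12.36 and 11.80 in 4-18, 12.92 to 13.43 in 3-44 and 13.20 to 13.60 in shRNA3T. Replicate 1 of 4-18 lay among the control arrays and the other 3 lay below them. *Dgat1* fell by 0.59 in 4-18 (1.51-fold, standard error 0.20, adjusted p = 0.0478 by limma), a call that was lost in 16 of 27 alternatives, among them the processed signal (-0.15, adjusted p = 0.601) and the removal of any 1 array of CN-10. Without replicate 1 of every group it was -0.75 (adjusted p = 0.0038). Against shRNA3T, from which 4-18 was separated on every array, the difference was -0.88 (1.84-fold, adjusted p = 0.00606), and against 3-44 it was -0.65 (adjusted p = 0.0333). With the processed signal these were -0.50 and -0.24 after 75th percentile scaling (adjusted p = 0.0916 and 0.43), and the second call was also lost on leaving out replicate 1, 3 or 4 of 3-44 or replicate 3 or 4 of 4-18 (adjusted p = 0.0504 to 0.0944). In shRNA3T the change from CN-10 was 0.28 (adjusted p = 0.481).

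*Dgat2*, the other enzyme of that last step, read 14.20, 15.09, 14.63 and 15.04 in CN-10, 13.83, 14.74, 14.54 and 13.96 in 4-18, 13.96 to 14.83 in 3-44 and 14.75 to 15.19 in shRNA3T. Its changes from CN-10 were -0.47, -0.22 and 0.33 (standard error 0.24, adjusted p = 0.191, 0.704 and 0.5). The fall in 4-18 passed with equal medians (-0.94, adjusted p = 0.0256), with the authors' values (-1.19, adjusted p = 0.0233) and with a term for the replicate number in the fit (-0.47, adjusted p = 0.0316). With the processed signal the value was 0.04 after 75th percentile scaling and -0.04 after quantile normalization. It was lower in 4-18 than in shRNA3T by 0.80 (1.74-fold, adjusted p = 0.0294), without overlap. That call was lost with the processed signal (-0.10 and -0.18) and on leaving out replicate 1 or 4 of 4-18 or replicate 2, 3 or 4 of shRNA3T (adjusted p = 0.0713 to 0.0899).

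*Srebf1*, which encodes the transcription factor SREBP-1, passed the test in no comparison with CN-10. It read 13.65, 13.87, 13.50 and 13.78 in CN-10 and 13.24, 13.90, 14.09 and 14.14 in 4-18, which overlapped. In 3-44 it read 11.75, 13.29, 13.21 and 13.21, and in shRNA3T 13.50, 13.48, 13.43 and 13.43, all at or below the lowest control array. The change was -0.83 for 3-44 (standard error 0.28, adjusted p = 0.0923), -0.24 for shRNA3T (adjusted p = 0.722) and 0.14 for 4-18 (adjusted p = 0.783). Replicate 1 of 3-44 decides much of this spread. Without replicate 1 of every group, *Srebf1* fell by 0.48 in 3-44 (adjusted p = 0.0113) and rose by 0.32 in 4-18 (adjusted p = 0.0354). With all arrays 4-18 exceeded 3-44 by 0.97 (1.96-fold, adjusted p = 0.021), although the groups overlapped at 1 array. That call was lost with equal medians (0.46), with the authors' values (0.35), in a fit of those 8 arrays alone and without replicate 3 or 4 of 4-18 (0.89 and 0.87).

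*Srebf1* is transcribed from 2 starts, which give the SREBP-1a and SREBP-1c forms, and its single probe (chr10:46462235-46462294, rn4, minus strand) was not designed to tell them apart as far as the files say. Of the 10 genes, 5 (*Srebf1*, *Acly*, *Me1*, *Scd1* and *Gpam*) were found in the RefSeq table of start sites on the GRCr8 build, with 6 starts. The 250 bases before each were searched on both strands for CCAAT (the NF-Y box), GGGCGG (the Sp1 box), CACGTG (an E-box) and TCACNCCAC (a form of the sterol response element). The windows of *Srebf1* are shown because this regulator has more than 1 start, 10154 bases apart, and capitals mark the motifs on either strand.
*Srebf1* upstream start (chr10:45529165-45529414, GRCr8, minus strand): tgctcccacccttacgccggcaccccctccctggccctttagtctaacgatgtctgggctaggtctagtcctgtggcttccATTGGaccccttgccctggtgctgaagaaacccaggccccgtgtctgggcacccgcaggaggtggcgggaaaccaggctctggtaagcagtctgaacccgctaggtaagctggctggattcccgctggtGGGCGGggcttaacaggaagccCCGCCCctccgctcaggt
*Srebf1* downstream start (chr10:45519011-45519260, GRCr8, minus strand): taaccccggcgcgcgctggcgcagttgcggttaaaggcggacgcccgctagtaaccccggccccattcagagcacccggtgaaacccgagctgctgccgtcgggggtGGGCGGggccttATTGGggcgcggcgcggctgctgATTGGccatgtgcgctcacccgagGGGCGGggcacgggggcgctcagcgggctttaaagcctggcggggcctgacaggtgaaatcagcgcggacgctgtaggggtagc
CCAAT was found in 4 of the 6 windows and in 34% of all 33469 windows of the table. GGGCGG was also found in 4 of 6, against 30.5% of all windows. Both windows of *Srebf1* held each of these motifs, so that by gene the count was 3 of 5 for either. CACGTG (5.59% of all windows) and TCACNCCAC (0.974%) were in none of the 6. The window of *Scd1*, which rose in 4-18, held none of these motifs, and that of *Me1* held GGGCGG 5 times. A match is a description of the letters and says nothing of binding in these cells.

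The order of the 4 groups was not the same for all genes. *Fasn* ran from 4-18 through shRNA3T and CN-10 to 3-44, and of the neighbours in that order only CN-10 and 3-44 did not differ (adjusted p = 0.291). *Acaca* ran in the same order, with 4-18 apart from the rest and no difference among the other neighbours (adjusted p = 0.97 and 0.992). *Scd1*, *Gpam*, *Acly* and *Srebf1* were also highest in 4-18, with no neighbour in their order differing. *Dgat1* was highest in shRNA3T and lowest in 4-18, and among its neighbours only CN-10 and 4-18 differed. *Me1*, *Elovl6* and *Dgat2* were also highest in shRNA3T. The range of the group means was widest for *Fasn* (1.61 on the log2 scale), followed by *Srebf1* (0.97), *Elovl6* (0.91), *Dgat1* (0.88) and *Scd1* (0.87), and narrowest for *Gpam* (0.30). Without replicate 1 of every group *Fasn* was still the widest (1.48), and the next were *Scd1* (1.18), *Dgat1* (1.00), *Elovl6* (0.82) and *Srebf1* (0.80).

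The genes nearest to *Fasn* in pattern were sought among 12637 probes well above background on all 16 arrays, by the root mean square difference over the 16 arrays after each gene was centred on its CN-10 mean. The nearest 5 were *Vwf* (0.157 on the log2 scale), *Cyp27b1* (0.175), *Col11a2* (0.182), *Pctp* (0.185) and *Abcg4* (0.19). Their changes ran from 1.22 to 1.48 in 4-18, from -0.28 to 0.01 in 3-44 and from 0.34 to 0.57 in shRNA3T. None of the other lipogenic genes was among them. The values above settled that, since the measure keeps the size of a change and none of those genes rose as much in 4-18.

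The wider pathway was read from a list of 68 further genes of lipid synthesis and storage, of which 65 were on the array. In 4-18, 17 of the 65 rose and 10 fell, in 3-44 9 rose and 3 fell, and in shRNA3T 14 rose and 6 fell. The backgrounds given above for all and for detected gene names are 24.1% and 36.2%, 8.14% and 12.8%, and 12.2% and 19.1%, and they apply to each count of this list by role too. The split in 4-18 turned with the scaling, to 12 higher and 16 lower with equal medians and 2 higher and 12 lower with the authors' values. The median change was 0.07, 0.10 and 0.20 on the log2 scale. Past 2-fold, 5 rose and 5 fell in 4-18, 2 rose in 3-44 and 9 rose in shRNA3T, against 6.15%, 1.47% and 2.39% of all gene names. Those past 2-fold in any comparison with CN-10 numbered 18, of which the 15 with the largest change were to be named and 14 are described. A few genes outside that rule are named below for small counts and were chosen after their values were seen.

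Of 6 further genes of carbon supply and the first steps, 1 rose and 1 fell in 4-18, 1 rose in 3-44, and 2 rose and 1 fell in shRNA3T, by limma at an adjusted p under 0.05 (36.2%, 12.8% and 19.1% of detected gene names). *Slc25a1*, the carrier that brings citrate out of the mitochondrion, fell by 1.10 in 4-18 (adjusted p = 0.000241) and by 0.60 in shRNA3T (adjusted p = 0.0331), the latter lost in 10 of 27 alternatives, among them the removal of any of replicates 1 to 3 of CN-10 or of replicate 1, 3 or 4 of shRNA3T (adjusted p = 0.0535 to 0.101). *Acss2*, which makes acetyl-CoA from acetate, rose by 1.40 in shRNA3T (adjusted p = 3.14e-05) and by 0.78 in 3-44 (adjusted p = 0.0051, lost under the other 4 scalings, adjusted p = 0.153 to 0.743), and was 0.05 in 4-18. One spot of *Acss2* and one of *Agpat1* in CN-10 were set aside as outliers, so these means rest on 3 arrays. *Mlycd*, which degrades malonyl-CoA, rose by 1.15 in shRNA3T (adjusted p = 0.0343), a call lost in 12 of 27 alternatives. *Acacb*, the carboxylase isoform at the mitochondrion, was well above background on no array of CN-10 and on 3 of 4 arrays of 4-18, and was at least 2.07-fold higher in 4-18 (adjusted p = 2.14e-05).

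Of 5 isoforms of acyl-CoA synthetase, the enzymes that load free fatty acids onto CoA, 2 rose and 1 fell in 4-18, and 1 rose in 3-44 and in shRNA3T. *Acsl4*, which prefers arachidonate, read 14.01 to 14.42 in CN-10 and 11.99 to 12.36 in 4-18. It fell by 2.05 (standard error 0.11, adjusted p = 6.82e-09) in 4-18 and was -0.14 in 3-44 and 0.12 in shRNA3T. *Acsl1*, the main isoform of liver, rose in all silenced groups, by 1.22, 0.65 and 1.09 in 4-18, 3-44 and shRNA3T (adjusted p = 2.52e-05, 0.0139 and 0.000175). The call of *Acsl1* in 3-44 was lost under the other 4 scalings (0.35 and 0.32 with the processed signal) and without replicate 2 of CN-10 (0.56, adjusted p = 0.0539), and in 4-18 with the authors' values (0.50, adjusted p = 0.242). *Acsl5*, a further isoform, rose by 0.61 in 4-18 (adjusted p = 6.79e-05). Of the 12 further elongases and desaturases, 3 rose in 4-18 (*Fads1* by 0.98, *Fads2* by 0.68 and *Elovl7* by 0.50) and 1 fell (*Fads3*, by 0.55), none passed in 3-44, and in shRNA3T *Fads1* rose by 0.88 and *Hsd17b12* fell by 0.58.

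Of 15 genes between glycerol phosphate and triglyceride, 4 rose, 2 fell and 9 did not pass in 4-18, 1 rose and 1 fell in 3-44, and 2 rose and 2 fell in shRNA3T. *Gpat3*, *Gpat4* and *Agpat3* passed against CN-10 in no group, and *Gpat2* and *Agpat4* were well above background on no array. *Agpat1* and *Agpat2* both add the second fatty acid, and in 4-18 *Agpat1* rose by 1.40 (adjusted p = 0.000374, and 0.61 with an adjusted p of 0.252 on the authors' values) while *Agpat2* fell by 1.10 (adjusted p = 2e-05). *Agpat5*, of the same family, fell by 1.45, 0.64 and 0.75 in 4-18, 3-44 and shRNA3T (adjusted p = 8.52e-06, 0.0206 and 0.00532), and its second probe fell in all of them too (-1.66, -0.70 and -1.19). The call of the first probe of *Agpat5* in 3-44 was lost in 9 of 27 alternatives, among them the other 4 scalings, outlier spots kept (-0.48, adjusted p = 0.0665) and the removal of replicate 2 or 3 of CN-10 or replicate 3 or 4 of 3-44 (adjusted p = 0.0599 to 0.0653). Its call in shRNA3T was lost with equal medians (-0.72, adjusted p = 0.0528) and with the authors' values (-0.75, adjusted p = 0.303). *Agpat2* also fell by 0.65 in shRNA3T (adjusted p = 0.00365). That call was lost with equal medians (-0.62, adjusted p = 0.207) and with the authors' values (-0.65, adjusted p = 0.276). *Lpin1*, the phosphatase that makes diacylglycerol for *Dgat1* and *Dgat2*, rose by 1.32, 0.99 and 1.08 in 4-18, 3-44 and shRNA3T (adjusted p = 3.18e-06, 0.000204 and 5.31e-05). With the authors' values the calls of *Lpin1* in 3-44 (0.88, adjusted p = 0.344) and shRNA3T (1.11, adjusted p = 0.0988) were lost, and with the processed signal its rises were larger (2.03 and 1.81 in 4-18 and shRNA3T after 75th percentile scaling). *Lpin1* is among the genes that the study picked out on these same arrays. *Gpd1*, which makes glycerol phosphate, rose by 1.47 in shRNA3T (adjusted p = 0.00159), against 0.47 in 4-18 and 0.34 in 3-44.

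Lipid droplet genes rose and fell in different groups. Of 11 genes of lipid droplets and triglyceride breakdown on the array, 4 rose and 1 fell in 3-44, 5 rose in shRNA3T, and 2 rose and 3 fell in 4-18. Of detected gene names 12.8%, 19.1% and 36.2% passed in these comparisons. *Cideb*, a droplet and lipoprotein assembly protein of hepatocytes, read 9.34 to 9.82 in CN-10, 11.06 to 11.59 in 3-44 and 10.58 to 10.75 in shRNA3T. It rose by 1.74 in 3-44 (adjusted p = 4.14e-06) and by 1.11 in shRNA3T (adjusted p = 0.000148), and was -0.23 in 4-18 (adjusted p = 0.325). *Cidec*, which fuses droplets, rose by 0.82 in 3-44 (adjusted p = 0.00015) and by 1.23 in shRNA3T (adjusted p = 2.06e-06), and fell by 0.30 in 4-18 (adjusted p = 0.0491, lost in 15 of 27 alternatives). Both rises of *Cidec* lost their call with the authors' values (0.71 and 1.26, adjusted p = 0.693 and 0.0821). *Plin2*, the main droplet coat protein of hepatocytes, rose by 0.54 in 4-18, 0.75 in 3-44 and 1.16 in shRNA3T (adjusted p = 0.0206, 0.0077 and 0.000148), and in 4-18 the call was lost in 6 of 27 alternatives, among them equal medians (0.05, adjusted p = 0.869), the authors' values, which turned its sign (-0.20), and the removal of replicate 4 of CN-10 or replicate 2 or 4 of 4-18 (adjusted p = 0.0523 to 0.0668). In 3-44 the call of *Plin2* was lost with equal medians (0.79, adjusted p = 0.118) and with the authors' values (0.65, adjusted p = 0.334). *Cidea*, of the same family as *Cideb*, moved apart in the shRNA3 groups on the brighter of its 2 probes, with a fall of 0.91 in 3-44 (adjusted p = 0.00114) and a rise of 0.76 in shRNA3T (adjusted p = 0.0027). The other probe of *Cidea* was not examined. The differences between 4-18 and the groups with shRNA3 passed the test for *Cideb* (-1.97 against 3-44 and -1.34 against shRNA3T, adjusted p = 2.73e-07 and 1.45e-05) and for *Cidec* (-1.12 and -1.53, adjusted p = 1.99e-06 and 9.67e-08).

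**Figure D3:**
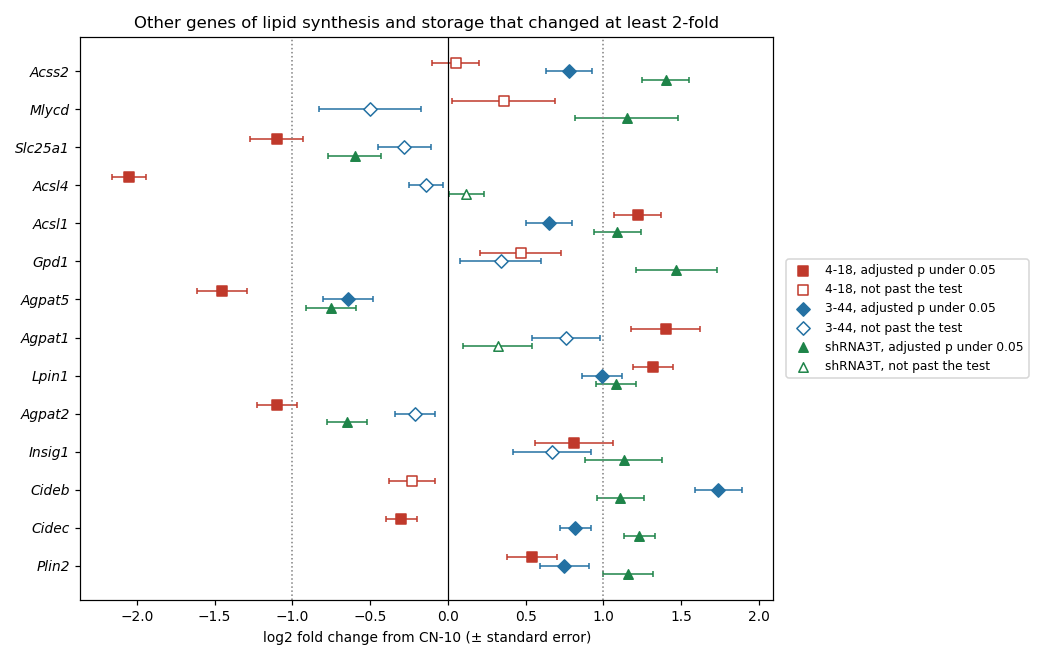
Log2 fold change from CN-10, with its standard error, of 14 named genes of the wider pathway, ordered by role from carbon supply to lipid droplets; filled symbols have an adjusted p under 0.05 and dotted lines mark 2-fold. *Acsl4* (-2.05) stands apart in 4-18, while *Cideb* and *Cidec* have filled symbols above 0 in 3-44 and shRNA3T.

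Among 14 further regulators, 5 rose and 1 fell in 4-18, 2 rose and 1 fell in 3-44, and 3 rose and 2 fell in shRNA3T, against 36.2%, 12.8% and 19.1% of detected gene names. *Insig1*, a target of SREBP that holds its precursor in the endoplasmic reticulum, rose by 0.81 in 4-18 (adjusted p = 0.027) and by 1.13 in shRNA3T (adjusted p = 0.00697), and was 0.67 in 3-44 (adjusted p = 0.133). The call in 4-18 was lost in 6 of 27 alternatives, among them the authors' values (0.06, adjusted p = 0.898), equal medians (0.31, adjusted p = 0.411) and the removal of replicate 1 of CN-10 (0.53, adjusted p = 0.0674) or of replicate 3 or 4 of 4-18 (0.74 and 0.76). In shRNA3T the call of *Insig1* was lost with the authors' values (1.06, adjusted p = 0.194). In 3-44 it passed in 5 of 27 alternatives, among them the processed signal (0.77, adjusted p = 0.0163 and 0.0157). *Mlxipl*, which encodes the glucose-responsive factor ChREBP, rose by 1.03 in 3-44 (adjusted p = 0.00177) and by 0.59 in shRNA3T (adjusted p = 0.0406). *Mlx*, its partner, rose by 1.00 in 4-18 (adjusted p = 1.74e-05) and fell by 0.46 in shRNA3T (adjusted p = 0.023), where its second probe had the other sign (0.57, adjusted p = 0.117). *Nr1h3*, the liver X receptor that acts on *Srebf1*, fell by 0.69 in shRNA3T (adjusted p = 3.29e-05) and by 0.30 in 3-44 (adjusted p = 0.0297).

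The scaling of the arrays bears on signs in 4-18 and on calls in every silenced group. With quantile normalization the median difference between 4-18 and CN-10 over all probes was 0.006 on the log2 scale, with equal array medians it was 0.391 and with the authors' values 0.149. For bright probes the shift had the other sign, as for the neighbours of *Fasn*. After 75th percentile scaling of the processed signal the median difference over all probes was 0.201 in 4-18 and -0.226 in shRNA3T, both against CN-10. Under the 5 scalings *Fasn* was higher in 4-18 by 0.67 to 1.34, *Acaca* by 0.43 to 1.15 and *Scd1* by 0.16 to 0.87, and *Dgat1* was lower by all of them, from -1.33 to -0.15.

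**Figure D4:**
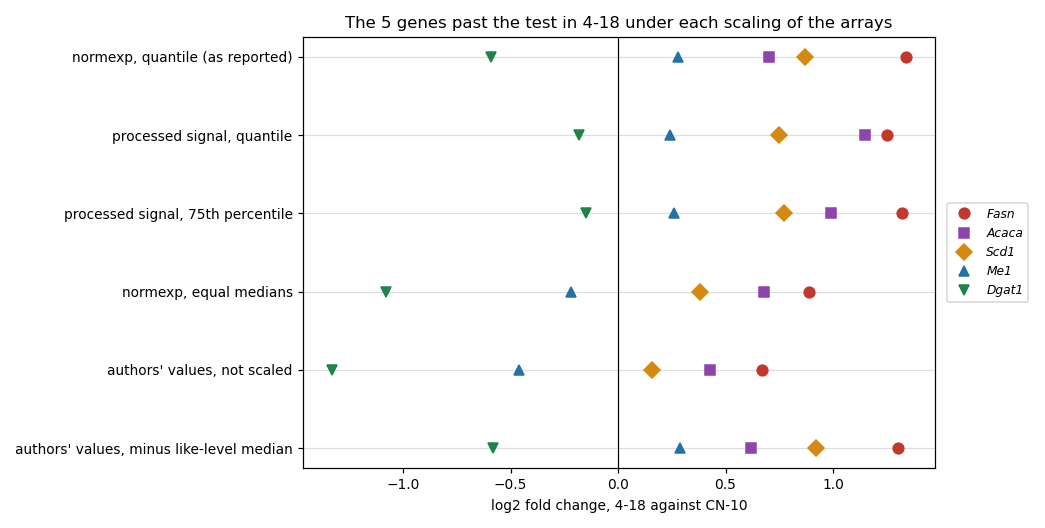
Log2 fold change of 4-18 against CN-10 for the 5 genes past the test there, under each scaling of the arrays and, in the lowest line, with the authors' values after the median of the 250 probes on either side in level was subtracted. *Fasn* is to the right of 0 in every line (0.67 to 1.34), and *Me1* changes sign in the lines for equal medians (-0.22) and the authors' values (-0.46).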

How the data were processed

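Labelled RNA of 16 samples was hybridized to 1 array each. Per the labels, 200 ng of total RNA was amplified. The deposited scanner files (Feature Extraction 10.7.3.1) hold the spot and background intensity on a linear scale, not normalized, with flags. The authors' table of log2 values had lost its decimal points. Once restored, they equalled the normexp-corrected median signal, not scaled between arrays (largest difference 4e-11).

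In R 4.3.3 with limma 3.58.1, normexp (offset 50) was applied to mean signal and median background of all spots, control spots were dropped, gene spots were quantile normalized, outlier-flagged spots set aside and repeat spots averaged. All 16 arrays entered 1 fit (lmFit, a mean for each group, then eBayes), and p-values were adjusted by Benjamini-Hochberg over all 30367 probes. The probe with the highest mean stands for a gene. A difference is a log2 fold change of normalized intensity, and the test is an adjusted p under 0.05. Exact permutation tests were two-sided (smallest p 0.0286).

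All 10 genes are described, every probe of each. Of the pathway list, genes changed at least 2-fold with an adjusted p under 0.05 against CN-10 are named, at most 15, by size; 1 of them is not reported here. For a probe with no array of a group well above background, the printed fold is a bound against the lowest detected signal of each array, or the probe's own where that is higher. Of 68 list genes, *Pgd*, *Plin4* and *Pnpla3* were not found by name. The genes and lists were chosen with earlier results of these data known. On simulated data with 200 of 29317 probes changed, 199, 190 and 194 were recovered in 4-18, 3-44 and shRNA3T against CN-10, with 10, 6 and 9 wrongly called. The planted changes were larger than any change of the 10 genes against CN-10, and the noise held no slide or scaling effect. The counts therefore do not give the recovery of smaller changes. Alternatives covered background, scaling, filters, weights and samples (27 per gene). A further one, the difference relative to the 250 probes on either side in level, was chosen after seeing the data. The number of arrays limits the precision.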

Additional observations from a re-analysis of the deposited data

Results flagged for a closer look

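In 8 of 110 groups of 4 arrays examined, 1 array lay far from the other 3, where chance alone gives about 1 in 20, and in all 8 the array was replicate 1. For *Srebf1* in 3-44 it was at 11.75 (others 13.21 to 13.29), for *Acaca* in 4-18 at 8.52 (others 8.19 to 8.23), for *Dgat1* in shRNA3T at 13.60 (others 13.20 to 13.26), for *Dgat2* in shRNA3T at 14.75 (others 15.16 to 15.19) and for *Gpd1* in CN-10 at 9.60 (others 9.86 to 9.92). *Pdrg1*, the silenced gene, had such an array in each silenced group, at 11.57 in 4-18 (others 13.25 to 13.34), 11.89 in 3-44 (others 12.86 to 12.95) and 12.39 in shRNA3T (others 12.90 to 12.97). With replicate 1 of every group left out, *Fasn* was still higher in 4-18 by 1.23 (adjusted p = 5.73e-05 by limma) and in shRNA3T by 0.45 (adjusted p = 0.0453), and *Acaca* in 4-18 by 0.69 (adjusted p = 0.0014). What sets these arrays apart was not tested.

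*Cidec* fell in 4-18 (-0.30, lost in 15 of 27 alternatives, such as -0.15 with equal medians). It rose in 3-44 (0.82) and in shRNA3T (1.23), and both of these calls were lost with the authors' values (adjusted p = 0.693 and 0.0821). The differences themselves were past the test at -1.12 for 4-18 against 3-44 and -1.53 for 4-18 against shRNA3T.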

How the results depend on the processing

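Each of the 60 differences of the 10 genes was recomputed under 27 alternatives. Of these 1620 values, 1495 kept their side of the test, 81 lost a call, 40 gained one and 4 were called values that turned in sign, all of *Me1*: in 4-18 against CN-10 to -0.22 (equal medians) and -0.46 (authors' values) and against 3-44 to -0.30 and -0.40. A further 64 values, none of them called as reported, changed sign. *Plin2* in 4-18 turned to -0.20 with the authors' values. The counts of the 10 genes past the test were 5, 0 and 2 in 4-18, 3-44 and shRNA3T against CN-10, 5 and 4 in 4-18 against 3-44 and shRNA3T, and 2 in 3-44 against shRNA3T. With the authors' values they were 2 in 4-18 (both lower and both past 2-fold), 0 in shRNA3T, 2 in 4-18 against 3-44 and 0 in 3-44 against shRNA3T. With equal medians they were 0 in shRNA3T, 3 in 4-18 against 3-44 and 0 in 3-44 against shRNA3T. With the processed signal, scaled by the 75th percentile or by quantiles, and without replicate 1 of every group, 1 gene passed in 3-44 and 1 in 3-44 against shRNA3T. Fits of 2 groups alone gave 3 in 4-18 and 2 in 4-18 against 3-44. Array weights gave 1 in 3-44, 4 in shRNA3T and 4 in 3-44 against shRNA3T. Past 2-fold in 4-18 the count of 1 became 2 with quantile-normalized processed signal and without replicate 1, and 4 at a 1.5-fold limit. Of the wider list, 27, 12 and 20 genes passed in 4-18, 3-44 and shRNA3T. With the authors' values 14, 1 and 5 passed, with equal medians 5 in 3-44 and 10 in shRNA3T, and with array weights 23 and 37. Leaving out 1 array gave 4 to 5, 0 and 1 to 3 of the 10 genes against CN-10, 2 to 5 and 3 to 5 for 4-18 against 3-44 and shRNA3T, 1 to 3 for 3-44 against shRNA3T, 1 to 2 past 2-fold in 4-18, and 19 to 28, 7 to 14 and 15 to 22 of the wider list. The replicate numbers were not taken to pair the samples, since the labels give no shared source and not every same-number correlation of deviations was over 0.1 (12 of 24, median 0.111, range -0.112 to 0.443, against 12 of 72 and a median of -0.025 for other pairs). As a hint from the data, 9 of 16 samples correlated best with their own number, and the fit as reported leaves out any effect shared by number. A replicate block added 1 gene in 3-44 (*Srebf1*, -0.83, adjusted p = 0.0452), *Dgat2* in 4-18 (-0.47, adjusted p = 0.0316) and in 3-44 against shRNA3T (-0.55, adjusted p under 0.05), and *Pdrg1* in 4-18, 3-44 and shRNA3T (adjusted p = 0.0176, 0.0108 and 0.0183), and changed no other call of the 10 genes and the named ones. The causes were not tested. Signal over background limits dim genes most in 4-18, where 53.1% to 64.1% of spots were well above background.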
